A study of Homo sapiens with 6 samples.

Results

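The 40 genes described here make or guard the secretory pathway of plasma cells: the sensors of endoplasmic reticulum (ER) stress, the chaperones and oxidases that fold secreted proteins, the machinery of ER-associated degradation, and the translocation and export apparatus. They were taken as a named list, out of 20007 protein-coding gene symbols in the GENCODE release 44 annotation of hg38, and the rule that names them uses no threshold on a measured value. For each gene, peaks were recorded within 1000 bp of any annotated transcription start site (TSS), called its promoter below, and within the gene body extended by 50 kb on each side, called its window. All 40 genes had at least 2 regions of open chromatin in their windows.

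Chromatin accessibility was measured by Omni-ATAC, in which the Tn5 transposase inserts adapters into open DNA, in MM.1S, an established human multiple myeloma cell line. There were 2 groups of 3 libraries. In the first, cells received CB-6644, an inhibitor of the RUVBL1/RUVBL2 ATPase complex, at 120 nM for 72 h, and in the second they received the vehicle, DMSO. Per the study's methods, live cells were sorted before the assay, so the libraries describe surviving cells of 1 line. The labels do not say that same-group libraries came from separate cultures, so each p-value measures only the spread between these libraries.

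A plasma cell devotes most of its protein synthesis to secreted immunoglobulin, and the unfolded protein response matches the folding capacity of the ER to that load. IRE1 (encoded by ERN1), PERK (EIF2AK3) and ATF6 sense misfolded protein in the ER lumen and act through the transcription factors XBP1, ATF4 and cleaved ATF6. XBP1 and ATF6 bind the ER stress response element (ERSE) in the promoters of chaperone and degradation genes, whereas ATF4 binds the C/EBP-ATF response element.

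Each library was deposited as its own peak list of 58563 to 79020 peaks on the main chromosomes. Every peak carries a fold, its summit pile-up of reads over the local background with 1 added to both, and a Poisson p-value, from which the whole-number pile-up was recovered. At strong peaks the local background was high: at the HSPA5 promoter it was 14.6 reads in CB-6644 replicate 1, where the lowest background of any peak was 0.782. Pile-up is therefore given beside fold. A peak's percentile is the rank of its -log10 p among all peaks of its own library. CB-6644 replicate 2 and DMSO replicate 1 stood apart from the others, with shortest peaks of 65 bp and 91 bp against 131 to 152 bp in the other 4, and are called the short-fragment libraries. Background tags per kb, a stand-in for depth, were 5.67, 3.20 and 7.05 in CB-6644 replicates 1 to 3, below the 6.40, 9.08 and 8.09 of DMSO replicates 1 to 3 except that CB-6644 replicate 3 exceeded DMSO replicate 1. Depth and treatment therefore cannot be told apart in counts of peaks. Of the genes that define plasma cells, SDC1, TNFRSF17, XBP1, PRDM1, IRF4 and SLAMF7 had promoter peaks in 6 of 6 libraries, and the T cell genes CD2, CD3D, CD3E and ZAP70 had them in 0. Of the other marker genes reported here, the B cell gene MS4A1 and the myeloid genes CSF1R and LYZ were at 0, the stromal genes COL1A2 and DCN were called in 4 libraries, and CIITA, PAX5, CD14, SPI1, COL1A1 and PDGFRB were called in all 6.

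Before the values, matches to the stress elements under these promoter peaks are shown, because XBP1 and ATF6 bind elements of this kind. RefSeq promoter windows of hg38 (250 bases before to 50 after the start) were matched by symbol for 36 of the 40 genes. PDIA3, DERL1, DERL3 and SEC24D had no window. Letters in capitals mark the match, sequences run 5′ to 3′ on the strand of the gene, and both strands were searched. ERSE was searched as CCAAT, any 9 bases, then CCACG. It occurred in 6 of 36 genes (16.7%), against 0.124% of 15345 windows of all genes:
HSPA5, chr9:125241386-125241414, minus strand: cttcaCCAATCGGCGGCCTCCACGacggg
HSP90B1, chr12:103930211-103930239, plus strand: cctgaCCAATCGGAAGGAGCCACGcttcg
HSP90B1, chr12:103930316-103930344, plus strand: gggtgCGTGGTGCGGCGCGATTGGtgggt
CRELD2, chr22:49918549-49918577, plus strand: cctctCGTGGCGAACTCGGATTGGgccat
ERO1B, chr1:236282178-236282206, minus strand: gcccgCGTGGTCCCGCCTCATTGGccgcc
CALR, chr19:12938379-12938407, plus strand: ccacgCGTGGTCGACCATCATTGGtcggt
CANX, chr5:179698773-179698801, plus strand: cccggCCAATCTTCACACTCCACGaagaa

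The second element, ERSE-II, was searched as ATTGG, any 1 base, then CCACG, and occurred in 3 of 36 genes (8.33%) against 0.0782% of all windows. It is shown because HERPUD1, the gene in which it was described, had the largest promoter difference in fold between the groups:
HERPUD1, chr16:56932020-56932040, plus strand: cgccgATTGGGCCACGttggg
SDF2L1, chr22:21642109-21642129, plus strand: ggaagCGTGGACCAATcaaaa
HYOU1, chr11:119057375-119057395, minus strand: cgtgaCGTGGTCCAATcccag
HYOU1, chr11:119057269-119057289, minus strand: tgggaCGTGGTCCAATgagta

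A peak lay over every one of these matches in all 6 libraries, with and without CB-6644. The summit lay 5 to 10 bp from the centre of the HERPUD1 ERSE-II in the 6 libraries and 16 to 24 bp from that of the CRELD2 ERSE. It lay 6 to 43 bp from the first HYOU1 ERSE-II, and at HSPA5 it was 8 to 54 bp away. At other matches it was farther in some or all libraries. The distance was 46 to 48 bp at CANX, 3 to 71 bp at CALR and 28 to 82 bp at SDF2L1. At the second HYOU1 ERSE-II it was 63 to 100 bp, and at ERO1B 92 to 113 bp. The HSP90B1 matches were 35 to 92 bp and 13 to 165 bp from the summit. The unfolded protein response element TGACGTGG was found in HYOU1 alone among the 36 genes (2.78%), overlapping the first of its ERSE-II matches, and in 0.847% of all windows. The components were common by themselves: CCAAT was present in 77.8% of members and 36.6% of all windows, and CCACG, which is part of both elements and of TGACGTGG on the other strand, in 66.7% and 44.1%. The C/EBP-ATF element, searched as TGATGNAA, was found in HERPUD1 alone (2.78%, against 2.54% of all windows). ERSE and ERSE-II are known from promoters of chaperone and degradation genes, the kind listed here. Their high shares among members are therefore not an independent result. A match is a description of these windows and says nothing of binding.

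All 40 genes had a promoter peak in all 6 libraries, against 66.3% of protein-coding genes. The windows held 407 merged regions, of which 241 (59.2%) were called in all 6 libraries. The number of regions per gene ran from 2 at SRP54 to 25 at ATF6 and ERN1, with a median of 9.5, against a median of 7.0 over all protein-coding genes. The windows held 293, 382 and 297 peaks in CB-6644 replicates 1 to 3 and 396, 349 and 315 in DMSO replicates 1 to 3. The groups overlapped, with means of 324 ± 50.3 and 353 ± 40.7 (SD, n = 3). As a share of all peaks of a library, the CB-6644 mean was 0.511% ± 0.0197 and the DMSO mean 0.491% ± 0.0104 (SD, n = 3).

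**Figure D1:**
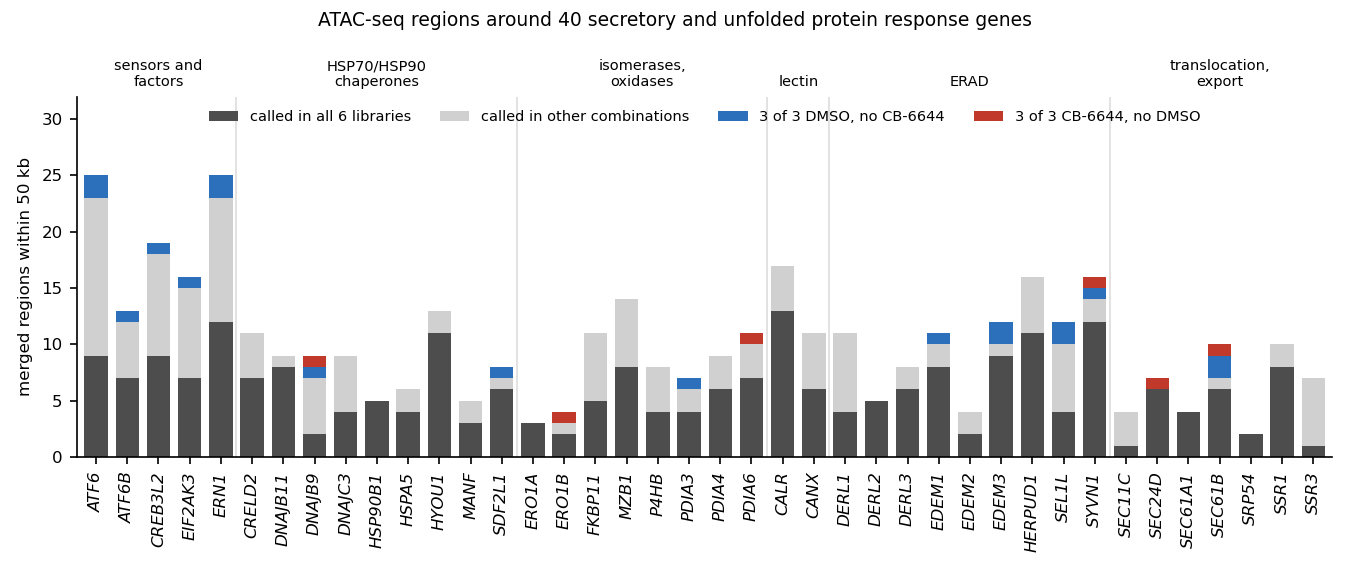
Merged regions within 50 kb of each of the 40 genes (y axis, number of regions), grouped by role; dark grey bars are regions called in all 6 libraries, light grey those in other combinations, blue those in 3 of 3 DMSO and no CB-6644 libraries, red the reverse. All 5 sensors and factors carry blue, 7 of 98 regions, and none carries red.

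Member promoters were strong peaks. A gene's strongest promoter region is here the one of highest mean log2 fold over the 6 libraries, both groups together. The median over members of the mean percentile of each gene's strongest promoter region was 96.8 (41.0 to 99.9), beside 86.6 over the 11603 strongest promoters of all genes. In limma fits of the 42089 regions called in all 6 libraries, 0.321% were higher and 0.418% lower with CB-6644 in fold at an adjusted p under 0.05, and 4.70% and 5.40% in pile-up. The pile-up fit was chosen after the fold results were seen. Of the 51 member promoter regions, 0 passed in fold, where limma gave 5 higher and 0 lower at an unadjusted p under 0.05 (9.80%, beside 6.08% of 14598 promoter regions of all genes). In pile-up 1 of the 51 passed (1.96%), lower, beside 1.75% of all promoter regions that were lower, which was the intronic promoter of ERN1.

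The median log2 difference in fold over the 40 strongest promoters, CB-6644 minus DMSO, was 0.17, beside 0.08 over all genes. Rankings of promoter differences below use these 40 regions. Over all 51 member promoter regions the difference ran from -0.33 to 0.76. The sign in fold was positive in 36 of 40 genes, beside 70.0% of the promoters of all genes, so most promoters of any kind had a positive sign. In pile-up it was positive in 17 of 40, beside 53.4%, and the median was -0.03 beside 0.02 over all genes. The small positive shift in fold was thus not present in normalized pile-up.

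**Figure D2:**
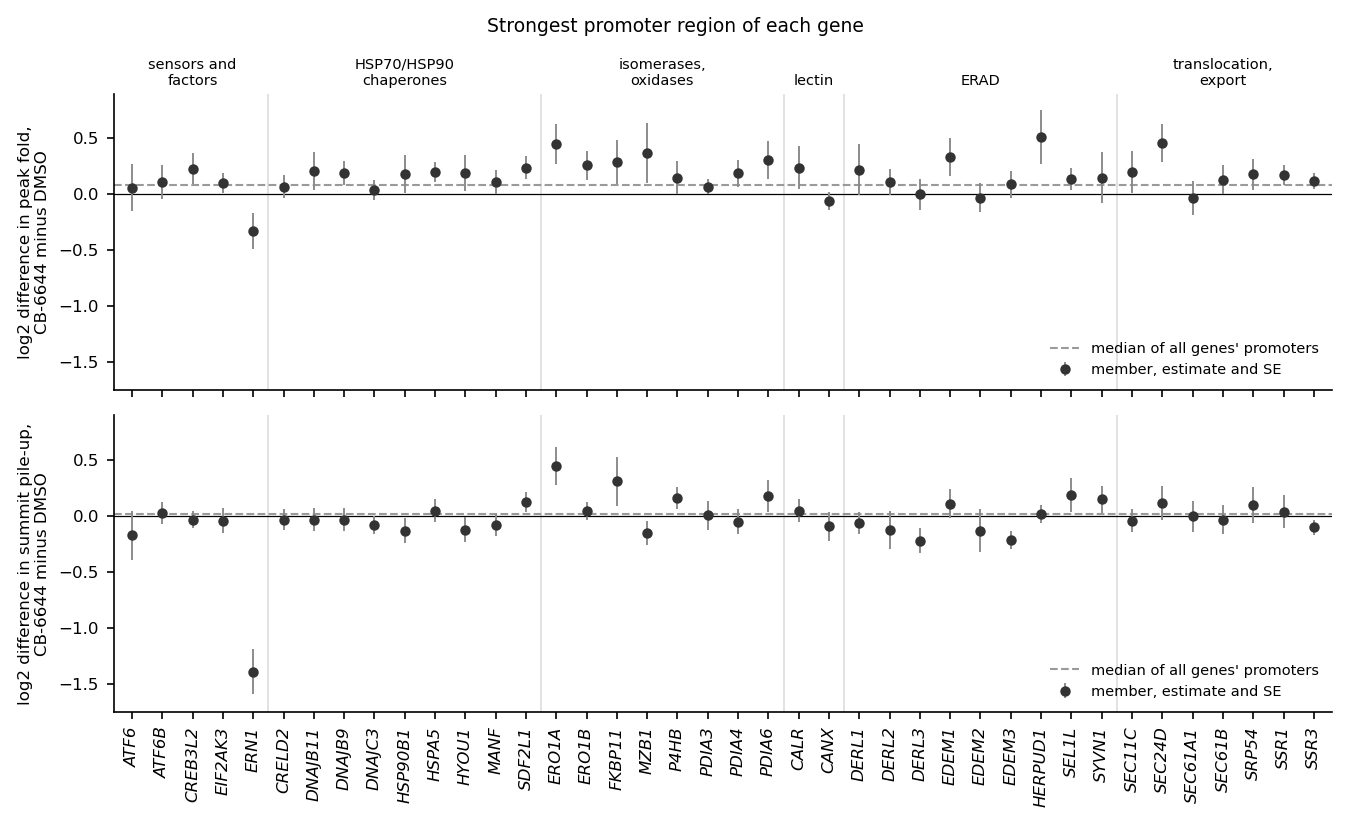
Log2 difference, CB-6644 minus DMSO, at the strongest promoter region of each of the 40 genes, in peak fold (upper) and summit pile-up (lower); points are limma estimates, bars their standard errors, and the dashed line the median of all genes' promoters. ERN1 lies at -0.33 in fold and -1.39 in pile-up, and every other gene lies between -0.22 and 0.51 on both scales. The ERN1 point is its intronic region, picked by mean fold over both groups, and not its 5′ promoter.

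Of the sensors, ERN1 encodes IRE1, the kinase and endoribonuclease that splices XBP1 mRNA. By mean fold over the 6 libraries, its strongest promoter region was not the 5′ promoter but an intronic region. This lay at chr17:64082069-64082547, 0.179 kb from an annotated internal start. The fold there was 16.0, 13.5 and 12.5 in CB-6644 replicates 1 to 3 and 22.4, 19.2 and 16.9 in DMSO replicates 1 to 3, so every CB-6644 library lay below every DMSO library. The summit pile-up was 71, 21 and 59 reads with CB-6644 and 143, 223 and 205 with DMSO, beside median pile-ups of 44, 22 and 52 and of 37, 56 and 56 over all peaks of those libraries. In percentiles, the region stood at 66.2, 49.8 and 49.6 with CB-6644 and at 85.1, 87.3 and 86.6 with DMSO. In CB-6644 replicates 2 and 3 another promoter region of ERN1 had the highest fold, 25.6 and 15.3. The intronic region was thus picked in part through its DMSO values. The rank of ERN1 among the promoter differences rests on that choice.

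The difference at this ERN1 region did not pass in fold (log2 difference -0.33, SE 0.16, limma adjusted p = 0.39). In pile-up it did (-1.39, SE 0.20, limma adjusted p = 0.003), and it was -1.26 (limma adjusted p = 2.7e-05) in the 4 long-fragment libraries alone. The local background, the divisor of the fold, was 3.50, 0.626 and 3.81 reads there with CB-6644 and 5.44, 10.7 and 11.2 with DMSO. The region holds a C/EBP-ATF match 24 bp from its summit, shown because this is the only member promoter region that passed on either measure. Such a match lay within 100 bp of the summit in 2.54% of all regions called in 6 libraries:
ERN1 intronic promoter, chr17:64082333-64082362, plus strand: cacaaacagacTGATGCAAgagacaggaaa

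The 5′ promoter of ERN1, chr17:64129727-64130710, was near the top of every list. Its percentile was 92.8, 94.1 and 93.8 with CB-6644 and 94.1, 93.0 and 90.7 with DMSO, and the difference in pile-up was 0.01 (limma adjusted p = 0.98). Its fold difference was 0.45 (SE 0.21, limma adjusted p = 0.36).

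Other intronic regions of ERN1 differed in direction, and none of those tested passed in fold or in pile-up. At chr17:64076043-64076840 the percentile was 20.7, 3.52 and 29.0 with CB-6644 and 47.4, 66.6 and 67.6 with DMSO, without overlap. Its pile-up difference was -1.20 (SE 0.34) and missed the threshold (limma adjusted p = 0.052). It passed when the fragment-length set was a term (limma adjusted p = 4.7e-05), a fit of pile-up in which 11.6% of all regions were higher and 12.7% lower. The neighbouring region chr17:64074360-64074768 went the other way, with a fold of 13.5, 12.7 and 12.8 with CB-6644 and 12.4, 9.24 and 7.31 with DMSO, without overlap (log2 difference 0.60, SE 0.20, limma adjusted p = 0.19). So did chr17:64063080-64063400 (0.78, SE 0.23, limma adjusted p = 0.14), and the pile-up differences of this pair were 0.07 and 0.10. Further towards the 5′ end of the gene, ERN1 held 2 regions called in every DMSO and no CB-6644 library. The first, at chr17:64091173-64091624, was at percentile 39.0, 52.5 and 44.2 in DMSO replicates 1 to 3. The second, at chr17:64095561-64095982 over an exon and UTR, was weak, at 7.71, 12.1 and 4.78.

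In the same window, a region over the first exon of PRR29 (chr17:63998511-63999138) moved the other way. Its fold was 13.5, 22.2 and 13.8 with CB-6644 and 12.2, 7.55 and 6.67 with DMSO, without overlap, and the log2 difference in fold of 0.99 (SE 0.24) missed the threshold (limma adjusted p = 0.092). It passed with the fragment-length set as a term (limma adjusted p = 0.0039), a fit in which 4.22% of all regions were higher and 6.09% lower.

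**Figure D3:**
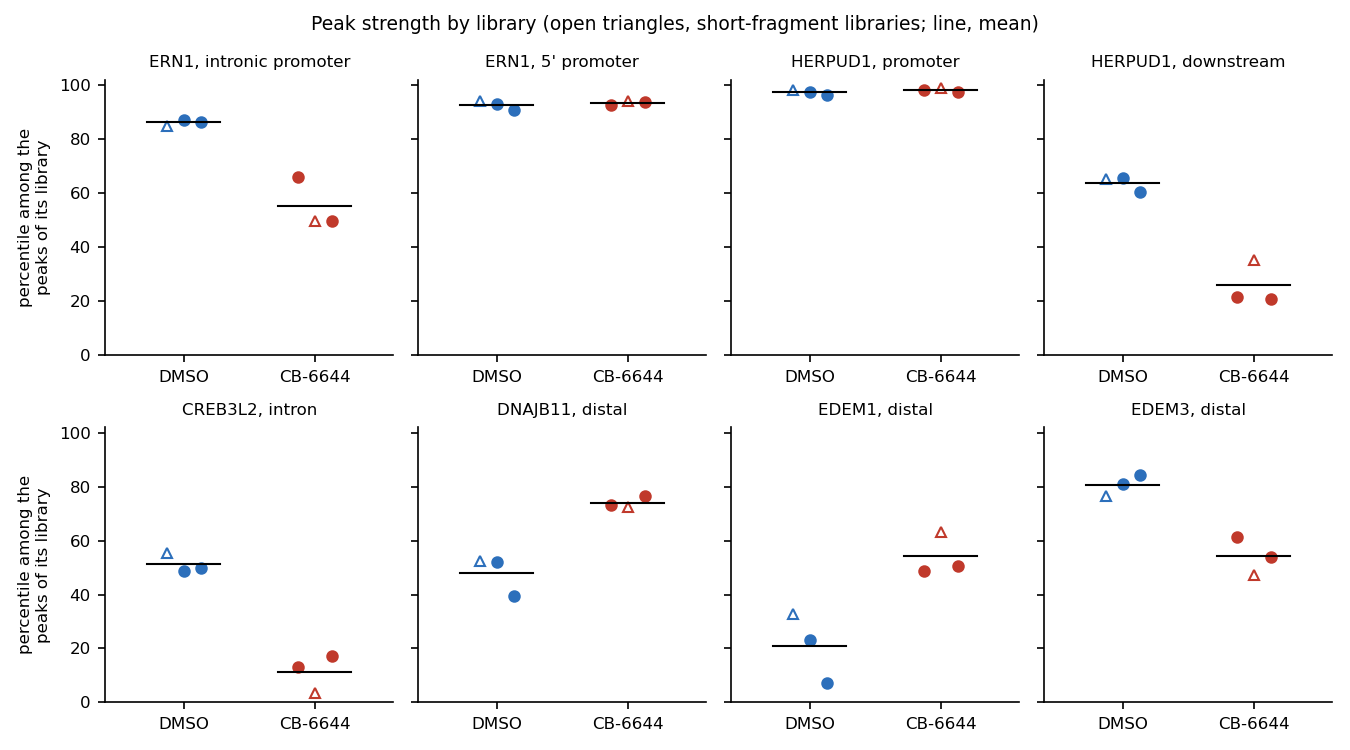
Percentile of 8 member regions among all peaks of the same library (y axis, 0 to 100), by group; filled circles are long-fragment and open triangles short-fragment libraries, and lines are means of 3. The ERN1 5′ promoter and the HERPUD1 promoter lie above 90 in every library, while the ERN1 intronic promoter, the HERPUD1 downstream region and the CREB3L2 intron are lower with CB-6644 and the DNAJB11 and EDEM1 distal regions higher, each without overlap of the groups.

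EIF2AK3 encodes PERK, which phosphorylates the translation factor eIF2α. Its strongest promoter had a fold of 26.1, 35.7 and 24.8 with CB-6644 and 33.3, 25.7 and 23.5 with DMSO, and the groups overlapped (log2 difference 0.10, SE 0.09, limma adjusted p = 0.62). An intronic region of the gene, chr2:88614511-88614706, was called in DMSO libraries alone, at percentile 8.43, 23.8 and 26.5.

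ATF6 encodes the sensor that is cut in the Golgi to release a transcription factor. Its promoter had the lowest mean percentile of the 40 (41.0), with a fold of 10.2, 10.3 and 13.7 with CB-6644 and 14.8, 10.1 and 11.8 with DMSO (log2 difference 0.06, SE 0.21, limma adjusted p = 0.91). Both of its DMSO-only regions were intronic. One lay at chr1:161805843-161806070, at percentile 36.7, 38.2 and 35.1. The other lay at chr1:161904569-161904834, at 12.7, 37.2 and 38.3. A further ATF6 region, chr1:161801951-161802304, had pile-ups of 107, 76 and 120 with CB-6644 and 84, 84 and 75 with DMSO. It was higher in pile-up (0.97, SE 0.19, limma adjusted p = 0.012) and did not pass in fold (0.52, limma adjusted p = 0.15).

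ATF6B, the close relative of ATF6, and CREB3L2, a membrane-bound factor of the CREB3 family that serves secretory cells, had 1 DMSO-only region each. That of ATF6B lay in an intron of TNXB, at percentile 36.7, 8.66 and 6.37. That of CREB3L2 lay 1.52 kb from the TSS, at percentile 23.7, 20.1 and 15.4. The intron of CREB3L2 held a lower region: at chr7:137992741-137993201 the fold was 5.74, 5.31 and 6.72 with CB-6644 and 10.8, 8.11 and 8.41 with DMSO, without overlap. It fell in pile-up by 1.07 on the log2 scale (SE 0.18, limma adjusted p = 0.0058) and had a fold difference of -0.54 (limma adjusted p = 0.27). A neighbouring intronic region, chr7:137981593-137982204, fell in pile-up by 0.66 (limma adjusted p = 0.034), with a fold difference of -0.01. A region nearest the TSS of AKR1D1 in the same window rose in pile-up by 1.07 (limma adjusted p = 0.018).

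All 5 sensors and factors thus had a DMSO-only region and 0 had a CB-6644-only region, beside 19.8% and 4.29% of all protein-coding genes. Of the further pathway genes of this role, read below, only CREB3L1, PPP1R15A and TRIB3 had a DMSO-only region. ATF4, CREB3, CREB3L3, CREB3L4, DDIT3, ERN2, MBTPS1, MBTPS2, WFS1 and XBP1 had 0. All of these further genes had 0 CB-6644-only regions. The windows of the 5 held 13 to 25 regions each, against the median of 7.0 over all genes. By regions, 7 of 98 (7.14%) were DMSO-only, beside 4.50% of all 89196 merged regions, and 0 of 98 were CB-6644-only, beside 0.586%. When each library kept the same number of its strongest peaks, ERN1 and ATF6 alone of the 5 had a DMSO-only region, 1 each, and ATF6 also had 1 CB-6644-only region.

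The HSP70 and HSP90 chaperones fold new proteins in the ER, and HSPA5 (BiP) also holds the sensors inactive. At the HSPA5 promoter the fold was 25.1, 35.9 and 25.3 with CB-6644 and 31.6, 23.3 and 22.7 with DMSO. The groups overlapped (log2 difference 0.20, SE 0.09, limma adjusted p = 0.38), and the pile-up difference was 0.05 (limma adjusted p = 0.82). At HSP90B1 (GRP94) the fold was 16.7, 24.7 and 16.7 with CB-6644 and 23.4, 17.5 and 14 with DMSO (log2 difference 0.18, SE 0.17, limma adjusted p = 0.64). At DNAJB9 (ERdj4), which recruits BiP to IRE1, it was 23.7, 31.2 and 22.7 and 30.2, 21.4 and 20.4 (log2 difference 0.19, SE 0.11, limma adjusted p = 0.46). In all 3 genes the short-fragment library had the highest fold of its group.

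DNAJB9 nevertheless carried the strongest DMSO-only region of the whole list. It lay in intergenic DNA, 34.1 kb downstream at chr7:108605863-108606394, with pile-ups of 39, 81 and 96 in DMSO replicates 1 to 3 and percentiles of 57.4, 66.2 and 73.1. On the other side of the gene, in an intron of PNPLA8, a weak CB-6644-only region reached percentiles of 17.3, 10.6 and 12.2. The remaining DMSO-only region of the chaperones was at SDF2L1, a BiP cofactor. It lay 0.531 kb from the TSS, the closest of the 18, and was the weakest, at percentile 0.249, 4.76 and 3.31.

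Near DNAJB11 (ERdj3), a secreted BiP cofactor, an intergenic region at chr3:186532682-186533072 was higher with CB-6644. Its fold was 22.3, 22.6 and 24.3 with CB-6644 and 18.7, 19.3 and 14.5 with DMSO, without overlap, and its percentile rose from 52.3, 51.9 and 39.3 to 73.1, 72.3 and 76.7. It passed in pile-up (1.45, SE 0.19, limma adjusted p = 0.0019) but not in fold (0.55, SE 0.14, limma adjusted p = 0.11). Its nearest TSS was that of CRYGS, 7.45 kb away.

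The isomerases and oxidases form and rearrange disulfide bonds and proline turns. ERO1A, which reoxidises protein disulfide isomerase, had a promoter fold of 14.1, 17.9 and 15.3 with CB-6644 and 15, 13.2 and 10.2 with DMSO (log2 difference 0.45, SE 0.18, limma adjusted p = 0.29). MZB1, a plasma cell chaperone of immunoglobulin assembly, had the lowest mean fold of the 40, with 8.67, 15 and 8.10 and 9.92, 8.13 and 7.51 (log2 difference 0.37, SE 0.27, limma adjusted p = 0.56). Both were among the 5 largest promoter differences, and in both the groups overlapped.

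This role had 1 DMSO-only region, at PDIA3, in an intron of SERF2 at percentile 39.0, 42.6 and 43.7. It had 2 of the CB-6644-only regions (2.99% of 67). At PDIA6 one lay over an exon and UTR at chr2:10821417-10821585, 0.553 kb from an annotated TSS, at percentile 28.6, 25.7 and 26.9. The 5′ end of this minus-strand gene is at chr2:10837977. At ERO1B one lay over an exon, at percentile 12.7, 32.5 and 10.1. PDIA6 also held an exonic region (chr2:10790514-10791040) that fell in pile-up by 0.76 (SE 0.21, limma adjusted p = 0.043), from 133, 224 and 206 reads with DMSO to 93, 30 and 112, with a fold difference of -0.11.

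The lectin chaperones calreticulin (CALR) and calnexin (CANX), which hold glycoproteins until they fold, had 0 group-only regions among 28. The CANX promoter had the second-lowest fold difference: 27.2, 33.4 and 27.2 with CB-6644 and 39.8, 30.1 and 25.3 with DMSO (log2 difference -0.06, SE 0.08, limma adjusted p = 0.77). In the CALR window, an intergenic region 7.29 kb from the TSS of NFIX rose in pile-up by 1.15 (SE 0.27, limma adjusted p = 0.023), with percentiles that overlapped between groups.

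ER-associated degradation pulls misfolded proteins back to the cytosol, and HERPUD1 organises its membrane complex. The HERPUD1 promoter, chr16:56930872-56932573, had a fold of 16.7, 34.0 and 15.7 with CB-6644 and 21.4, 13.7 and 11.7 with DMSO. This was the largest difference among the 40 strongest promoters (0.51, SE 0.24, limma adjusted p = 0.36). Its pile-up was 376, 238 and 452 with CB-6644 and 440, 553 and 483 with DMSO, a difference of 0.02 after normalization (limma adjusted p = 0.93), over a local background of 21.5, 6.03 and 27.9 reads and of 19.6, 39.5 and 40.3. The percentile was 98.3, 99.2 and 97.4 and 98.4, 97.5 and 96.6. The peak over the ERSE-II was therefore near the top of every list in both groups.

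Downstream of HERPUD1, 4.60 kb from its nearest annotated TSS, the region at chr16:56946609-56947501 was lower. Its pile-up was 54, 27 and 63 with CB-6644 and 109, 178 and 170 with DMSO, and its percentile 21.6, 35.2 and 21.0 against 65.3, 65.8 and 60.6. It fell in pile-up by 1.05 (SE 0.16, limma adjusted p = 0.0036), while the fold groups overlapped (-0.18, SE 0.25, limma adjusted p = 0.77). The local background there was 10.8, 2.80 and 13.9 reads with CB-6644 and 12.6, 26.4 and 30.9 with DMSO.

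EDEM1, a mannose-trimming factor that marks glycoproteins for degradation, had the only member region that passed in fold. At chr3:5245885-5246355, in intergenic DNA 50.8 kb from its TSS, the fold was 17.4, 18.7 and 18.7 with CB-6644 and 12.6, 11 and 7.18 with DMSO, without overlap. The region rose in fold (log2 difference 1.0, SE 0.19, limma adjusted p = 0.049) and in pile-up (1.42, SE 0.25, limma adjusted p = 0.0069). It was 1 of 190 member regions outside promoters, and limma gave 24 higher and 8 lower among them at an unadjusted p under 0.05 (16.8%, beside 18.9% of the 27491 regions outside promoters of all genes). The adjusted p for fold was 0.014 in the 4 long-fragment libraries, 0.0045 with the fragment-length set as a term and 0.13 with the replicate number as a block. No member region outside promoters passed in fold when any single library other than CB-6644 replicate 2 was left out.

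Inside EDEM1, the data moved both ways. The exonic region chr3:5212868-5213906 had percentiles of 92.9, 95.4 and 91.0 with CB-6644 and 90.3, 83.3 and 80.7 with DMSO, and rose in pile-up by 0.56 (SE 0.13, limma adjusted p = 0.024). The intronic region chr3:5205354-5205918 rose by 0.58 (SE 0.15, limma adjusted p = 0.032). Immediately beside the exonic region, at chr3:5212300-5212716, a DMSO-only region had percentiles of 62.5, 54.8 and 45.6.

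EDEM3, a related trimming factor, had an intergenic region 53.8 kb from its TSS that was lower with CB-6644: its fold was 13.5, 12.6 and 12.5 against 20.9, 18.7 and 17.7 with DMSO, without overlap. It fell in pile-up by 0.92 (SE 0.23, limma adjusted p = 0.028), with a fold difference of -0.42 (limma adjusted p = 0.24). On the NIBAN1 side of EDEM3 lay 2 DMSO-only regions, at percentiles of 22.1, 28.2 and 12.8 and of 36.1, 36.9 and 37.5.

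SEL1L and SYVN1 form the HRD1 ubiquitin ligase of this pathway. SEL1L had 2 DMSO-only regions, of which the intergenic one (chr14:81470153-81470623) reached percentiles of 42.0, 49.9 and 35.1 and the intronic one 14.2, 23.8 and 31.3. SYVN1 had 1 of each kind. The DMSO-only region lay 17.6 kb upstream at percentiles of 6.51, 7.60 and 7.25. The CB-6644-only region lay over an exon in the gene body, 0.185 kb from an annotated TSS, at percentiles of 40.8, 31.5 and 26.8.

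The lowest promoter differences of the role were close to 0, at EDEM2 (-0.03, SE 0.13) and DERL3 (0.00, SE 0.14). Near DERL2, a channel subunit, a region in an intron of NLRP1 rose in pile-up by 0.96 (SE 0.17, limma adjusted p = 0.006).

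The translocation and export genes carry nascent chains into the ER and cargo out of it. SEC24D, which selects cargo for COPII vesicles, had the second-largest promoter difference, with a fold of 15.2, 21.3 and 17.2 with CB-6644 and 17.3, 14.5 and 10.9 with DMSO (0.46, SE 0.17, limma adjusted p = 0.26). SEC61A1, the channel of the translocon, had 18.0, 29.5 and 20.3 and 32.6, 21.8 and 18.4 (-0.03, SE 0.15, limma adjusted p = 0.94). SEC61A1 shares its window with RUVBL1, which encodes a subunit of the target of CB-6644.

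Within RUVBL1 introns, 2 regions rose in pile-up. One, chr3:128114138-128114821, had percentiles of 75.8, 84.0 and 74.2 with CB-6644 and 70.0, 63.4 and 67.1 with DMSO (0.73, SE 0.18, limma adjusted p = 0.029). The other, 1.95 kb from an annotated RUVBL1 TSS, had 83.7, 89.4 and 84.2 and 83.4, 78.9 and 77.5 (0.62, SE 0.16, limma adjusted p = 0.037). Neither passed in fold, with limma adjusted p of 0.11 and 0.87.

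SEC61B, another translocon subunit, had 3 group-only regions, all intergenic and upstream, of which 2 were DMSO-only. The DMSO-only pair reached percentiles of 20.8, 12.5 and 19.4 and of 49.8, 29.8 and 24.1, and the CB-6644-only region 22.8, 19.0 and 8.89. SEC24D had a CB-6644-only exonic region at percentiles of 37.5, 44.4 and 30.0, the highest of the 6.

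In all, 18 of 407 member regions (4.42%) were DMSO-only, beside 4.50% of all regions, and 6 (1.47%) were CB-6644-only, beside 0.586%. Of the genes, 13 of 40 (32.5%) had a DMSO-only region, beside 19.8% of all protein-coding genes, and 6 (15%) had a CB-6644-only region, beside 4.29%. Member windows held more regions than those of an average gene, so the shares of regions are the closer comparison. There the DMSO-only share was near its background and the CB-6644-only share, which rests on 6 regions, was above it. Of 65 promoter regions, 1 was DMSO-only, at SDF2L1 (1.54%, beside 1.35% of 19353 promoter regions of all genes), and 2 were CB-6644-only, at PDIA6 and SYVN1 (3.08%, beside 0.238%). Both of the latter lay over exons in the gene body, near further annotated starts, and not at the 5′ end of the gene. The CB-6644-only regions of ERO1B and SEC24D also lay over exons. When every library was limited to an equal number of top peaks, 8 of the 18 DMSO-only and 5 of the 6 CB-6644-only regions kept their class. When the long-fragment libraries were scaled to equal background, 8 of the 18 and 3 of the 6 kept it. With the 20000 top peaks of each library, 0 of the 18 and 0 of the 6 did. The 8 at equal numbers of peaks were at ERN1, ATF6, DNAJB9, PDIA3, EDEM1, EDEM3, SEL1L and SEC61B, 1 each. With DMSO replicate 1 left out, the DMSO-only count rose to 28.

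In the 190 regions outside promoters, pile-up gave 15 higher (7.89%) and 7 lower (3.68%), beside 6.41% and 7.34% of all 27491 regions outside promoters. In fold the same regions gave 1 higher (0.526%) and 0 lower, beside 0.451% and 0.607%. Thus, fold and pile-up gave different counts on the same peaks, and the plot of one measure against the other shows where they part.

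**Figure D4:**
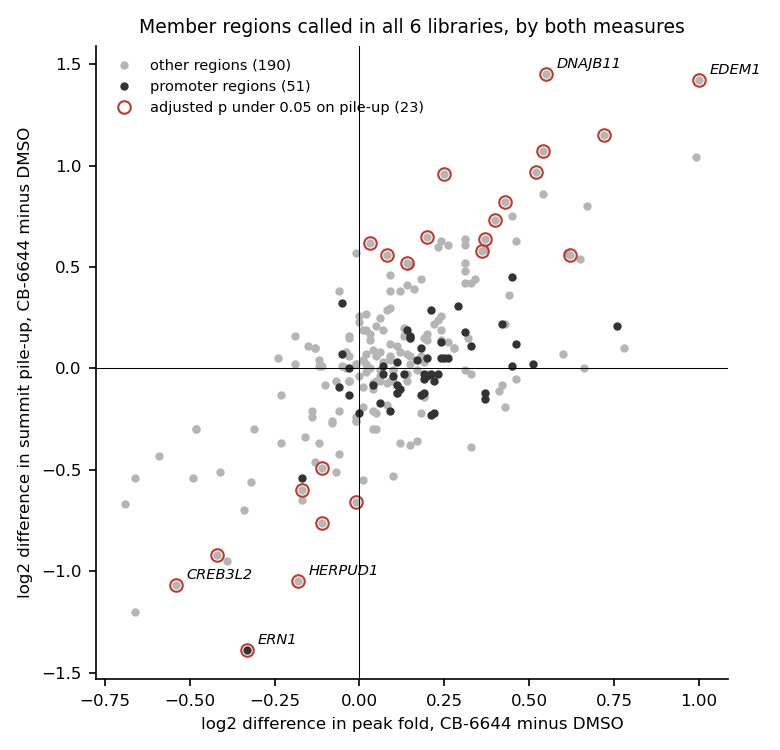
Log2 difference, CB-6644 minus DMSO, in peak fold (x axis) and in summit pile-up (y axis) for the 241 member regions called in all 6 libraries; black points are 51 promoter regions, grey points 190 others, and red rings the 23 with an adjusted p under 0.05 in pile-up. Of the 51 promoter regions, 44 sit to the right of 0 in fold and 24 above 0 in pile-up, and the ERN1 intronic promoter lies at -0.33 and -1.39.

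Among the group-only regions, ERSE, ERSE-II and TGACGTGG were not found within 100 bp of any of the 24 summits. These elements were rare in any region: ERSE and ERSE-II were each found in 0.0235% of all regions and TGACGTGG in 0.362%, and in the 4016 DMSO-only regions they were found in 0, 0 and 5 (0.125%). Their absence near 24 summits is therefore at the background. The C/EBP-ATF element was found in 2 of the 18 DMSO-only (11.1%) and 1 of the 6 CB-6644-only regions, beside 12.7% of all DMSO-only, 2.10% of all CB-6644-only and 3.98% of all regions. The element was thus more frequent in DMSO-only regions genome-wide than in all regions. Median GC around the summits was 41.8% in all DMSO-only regions and 49.3% in all regions. Whether base composition bears on the frequency was not tested. The 3 matches at members are shown on the plus strand of hg38:
ATF6 intron, DMSO-only, chr1:161904676-161904705: tgttctatttaTGATGAAAgaaaactggta
SEL1L intron, DMSO-only, chr14:81529629-81529658: tttcatgtgaaTTGCATCAtgcttctcttt
SEC24D exon, CB-6644-only, chr4:118730017-118730046: tttcattttgtTGATGAAAgtcaaggaaat

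A further 84 genes of the same pathways, listed by role, were read the same way. Of these, 83 had a promoter peak in all 6 libraries. The exception was KDELR3, a receptor that returns ER proteins from the Golgi, whose promoter peak was called in 3 of 3 DMSO libraries but only in CB-6644 replicate 2. There were 19 genes (22.6%) with a DMSO-only and 4 (4.76%) with a CB-6644-only region, close to the 19.8% and 4.29% of all protein-coding genes. DNAJC10, a disulfide reductase of the degradation pathway, had its DMSO-only region 0.475 kb from a TSS at percentiles of 54.0, 50.3 and 41.3. TXNDC11 had 3 DMSO-only and 1 CB-6644-only, CREB3L1 had 2 DMSO-only, and SSR2 had 1 of each.

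In the fold test, 0 of 107 promoter regions of these genes were higher, beside 0.0754% of all promoter regions. Of the 107, 1 was lower (0.935%, beside 0.0617%). It belonged to TRIB3, a pseudokinase induced by ATF4 and CHOP under ER stress. At chr20:362425-362838 the fold was 16.0, 16.4 and 13.4 with CB-6644 and 36.0, 25.9 and 25.8 with DMSO, without overlap (log2 difference -0.85, SE 0.14, limma adjusted p = 0.035). In pile-up the difference was -2.10 (limma adjusted p = 0.0012). Outside promoters, 2 of 361 regions were higher (0.554%) and 1 lower (0.277%), beside 0.451% and 0.607% of all regions outside promoters. The higher ones lay near TXNDC11 (0.92, limma adjusted p = 0.032) and KDELR2 (1.06, limma adjusted p = 0.046), and the lower one in an intron of SEC13 (-0.75, limma adjusted p = 0.04). These 4 calls in fold were not made with median centring, with the replicate block, or when any single library other than CB-6644 replicate 2 was left out. In pile-up the promoter counts were 2 higher and 2 lower (1.87% each), beside 1.47% and 1.75% of all promoter regions. The others were 10 higher (2.77%) and 13 lower (3.60%), below the 6.41% and 7.34% of all regions outside promoters.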

How the data were processed

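Omni-ATAC libraries of MM.1S cells were prepared from 3 CB-6644 and 3 DMSO samples. Per the labels, the authors used Bowtie2 2.4.2, hg38 and MACS3 3.0, and deposited 1 narrowPeak list per library, with no pooling of replicates. Each list gives a fold (ratio of pile-up to local background), and a -log10 p-value and -log10 q-value, as deposited by the authors. Read counts were not analysed here, so the count test of the study's methods was replaced by a test on peak values. The lowest -log10 q in the 6 lists was 3.01 to 3.33, and no column was left unassigned (0 unused).

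The 40 genes, the 84 further pathway genes, the markers and the motifs were chosen with earlier results of these data known. Genes were described by values if they had a group-only region in their window, stood among the 5 highest or 5 lowest promoter differences, passed the test, or were HSPA5, HSP90B1, DNAJB9, HERPUD1, ERN1, EIF2AK3 or ATF6. Pathway genes were named for a group-only region in the promoter, 2 or more in the window, or a promoter peak missing in some library. Those in the role of ER stress sensors and transcription factors were all named beside the 5 members of that role. Regions named on pile-up were chosen after their values were seen.

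Overlapping peaks (1 bp or more) of the 6 lists were joined into 89196 regions. A region called in 3 of 3 libraries of a group and in none of the other was group-only. Whole pile-ups and backgrounds were recovered from fold and p-value by taking the whole number that fitted best. In 100% of peaks the -log10 p was met to within 0.001 of its own size, which is a relative tolerance. The strongest peak per library in regions called in all 6 was log2-transformed, quantile-normalized and tested with limma 3.58.1 (R 4.3.3), with trend, group as the sole term and Benjamini-Hochberg adjustment over 42089 regions. Fits were checked on simulated data. GENCODE release 44 gave starts and genes. Python 3.11.15, numpy 2.4.6, scipy 1.17.1 and pandas 2.3.3 did the rest. Alternatives were stricter q, equal or 20000 top peaks, window size, merging rule, library subsets, other centring, -log10 p, the replicate block, the fragment-length set and, added after seeing the data, pile-up. One marker gene is not reported here.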

Additional observations from a re-analysis of the deposited data

How the results depend on the processing

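The 40 of 40 promoter peaks held under every alternative tried but 20000 top peaks per library, which left 36. DMSO-only regions of members (18) numbered 3 with 20000 top peaks (none of them among the 18), 8 with equal numbers of peaks, 34 in the long-fragment libraries alone, 35 with 2 of 3 libraries, 11 within 10 kb and 29 within 100 kb, and 18 to 28 with each library left out in turn. Their genes (13) numbered 3, 8, 20, 20, 8 and 20 in the same order, and 13 to 17 with a library left out. CB-6644-only regions (6) numbered 10 in the long-fragment libraries, 16 when these were scaled to equal background at a -log10 p of at least 20, where their genes numbered 13, and 6 to 8 with a library left out. At equal background the DMSO-only regions numbered 16, so that the excess of DMSO-only over CB-6644-only regions among members was not seen there. With equal numbers of top peaks the counts were 8 DMSO-only and 7 CB-6644-only, and with 20000 top peaks they were 3 and 4. Over all merged regions the reported counts were 4016 DMSO-only and 523 CB-6644-only. There they became 3452 and 2535 at equal background, 1857 and 1063 with equal numbers of peaks, and 733 and 561 with 20000 top peaks. The DMSO-only excess thus also shrank over all regions under these alternatives, but remained.

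Promoter calls in fold (0) became 1 with -log10 p, 4 with the fragment-length set as a term and 1 in the long-fragment libraries, and stayed 0 with any library left out. With pile-up they were 1, with the fragment-length set as a term 5, and in the long-fragment libraries 4. The 4 calls in fold with the fragment-length set as a term were 7.84%, beside 3.85% of all promoter regions. The pile-up shares, in the same order, were 1.96%, 9.8% and 7.84%, beside 3.23%, 12.9% and 9.04%. Calls at other member regions (1) became 17 with -log10 p, 19 with the fragment-length set as a term, 9 in the long-fragment libraries, 0 with median centring, 0 among regions above the median fold, and 0 to 5 with a library left out: 5 without CB-6644 replicate 2 and 0 without any other single library. With pile-up they were 22, with the set as a term 53, and in the long-fragment libraries 39. The EDEM1 call in fold was thus lost without any single library other than CB-6644 replicate 2, but was made in the 4 long-fragment libraries. Outside promoters, the 17, 19 and 9 member calls were 8.95%, 10% and 4.74%, beside 10.5%, 13.7% and 9.83% of all such regions. The 5 in fold without CB-6644 replicate 2 were 2.63%, beside 5.57%. The 22, 53 and 39 in pile-up were 11.6%, 27.9% and 20.5%, beside 13.8%, 30.3% and 24.6%. In each of these fits the member share, both directions together, was below that of all regions outside promoters. By direction the shares split. The share higher with CB-6644 was above that of all such regions in each fit, and the lower share below it. In fold with the fragment-length set as a term, 8.42% were higher and 1.58% lower, beside 5.17% and 8.58%. In pile-up with that term they were 17.4% and 10.5%, beside 14.1% and 16.2%. The median promoter difference (0.17) was -0.01 with -log10 p, -0.03 with pile-up, and 0.09 to 0.22 with a library left out.

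Whether the replicate numbers pair the libraries could not be settled. Deviations of same-numbered libraries correlated at -0.477, -0.332 and 0.326, and not every library correlated best with its own number. The highest correlation, 0.572, joined the short-fragment pair, whose numbers differ. These values therefore cannot separate pairing from fragment length. With the replicate number as a block, 0 member regions passed. Peak lists hold no signal below their threshold, so a region called in 1 group alone is not shown to be closed in the other, and background was lowest in CB-6644 replicate 2.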
